A study of Homo sapiens with 12 samples.

Results

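MDA-MB-231 cells given a water extract of the medicinal plant Kalanchoe pinnata were compared with untreated cells of the same line across all genes. Of the 12 libraries of the series, the 6 that carry this line in their titles were used: controls E1, E2 and E3, and extract libraries E7, E8 and E9. The deposited table names 19516 genes by symbol, and 12860 of them had enough reads in these 6 libraries to be tested. MDA-MB-231 is a line from a human triple-negative breast cancer with a mesenchymal shape, labelled as wild type, and all cells grew in DMEM with fetal bovine serum and antibiotics. Extract cells received 140 µg/mL for 72 h and controls were kept for 72 h, with no vehicle named in the labels. The cell line field of the labels counts upward from MDA-MB-231 through the 6 samples, while every title says MDA-MB-231, and the titles were followed. Nothing in the labels says that the libraries of a group came from separate cultures, so the p-values describe library-to-library spread only, and that spread may be technical.

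A cell that meets a plant extract can change its messenger RNA through stress programmes. The factor ATF4 turns on amino acid uptake, amino acid synthesis and transfer RNA charging when translation or amino acid supply is disturbed. The factor HSF1 drives chaperones, which fold proteins, through repeats of a short heat shock element. AP-1 and NF-kB carry growth and inflammatory signals, and in triple-negative lines they feed migration and cytokine release.

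Levels are in CPM, the usual depth-scaled unit, that is the reads of a gene as a share of its scaled library, always given in the order E1, E2, E3 and then E7, E8, E9. Genes are called risen or fallen where edgeR's quasi-likelihood test over the 6 libraries gave a Benjamini-Hochberg adjusted p under 0.05. Folds are log2 fold changes with a standard error (SE). The SE was worked back from the fold change and the statistic of the test, so it is not a separate measure of spread. Both directions are relative to the rest of each library, since no measure of RNA per cell was made, and in bulk samples fewer cells of a kind and less RNA per cell cannot be told apart. Totals ran from 16170545 to 26420547 counts, so that 3 counts in 1 library corresponded to 0.116 to 0.215 CPM, which covers counting error only. Library E7 stood apart from E8 and E9. Its Spearman correlation across genes was 0.958 to E8 and 0.957 to E9, against 0.9968 to 0.9974 for every other pair within a group, and it had reads in 14036 genes against 14653 in E8 and 14544 in E9. The biological coefficient of variation was 0.0439 in controls, 0.292 in extract libraries and 0.0369 in E8 and E9 alone. Results are therefore given with and without E7, and also with an offset for transcript length and GC content, for the reason given next.

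With extract, 3903 genes rose (30.3% of those tested) and 4111 fell (32%), 62.3% in either direction, of which 1982 rises and 2805 falls reached a log2 fold change of at least 1. Without E7, 13086 genes could be tested, and 5342 rose (40.8%) and 5364 fell (41%), 81.8% in either direction. With E7 kept and the offset, 31.9% rose and 31.3% fell, 63.2% in all. With the offset and no E7, 39.2% rose and 38.8% fell, 78% in all. Of the calls over 6 libraries, 3892 rises and 4102 falls were also called in the same direction without E7, and none was called in the opposite direction. The offset kept 2754 of the rises and 2747 of the falls, and 402 genes were called in the opposite direction with it. Extract libraries lay wholly above the controls for 35% of genes and wholly below for 37.5%. So a single gene called in this comparison is in the majority of genes, and gene groups below are read against these shares and against a median log2 fold change of 0.02 over all genes tested.

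The change in level followed the shape of the transcript. Long transcripts and transcripts poor in G and C were lower with extract, and short GC-rich ones were higher. Of 490 genes whose longest coding transcript exceeds 8 kb with at most 42% GC, 422 fell and 9 rose, with a median of -1.79, or -1.71 without E7. Of 871 genes with at most 2 kb and over 58% GC, 528 rose and 78 fell, with a median of 0.89, or 0.60 without E7. Across 12799 annotated genes the Spearman correlation of the fold change was -0.43 with transcript length, 0.51 with GC content and -0.27 with the number of exons. These are correlations across genes, which are not independent replicates. Without E7 they were -0.31, 0.54 and -0.19.

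The GC trend was present in each extract library, while the length trend was steeper in E7. Taken against the control mean, the correlation with GC was 0.42 in E7, 0.55 in E8 and 0.54 in E9, and that with length was -0.57, -0.32 and -0.32. Genes over 8 kb with more than 58% GC separate the trends: their median ratio was -1.09 in E7 but 0.09 in E8 and 0.17 in E9. Genes of at most 2 kb with at most 42% GC did the reverse, with 0.33 in E7, -0.41 in E8 and -0.46 in E9. The background between control libraries was small, since E1 against the mean of E2 and E3 gave class medians between -0.11 and 0.09. The correlations had the same signs there, at -0.34 with length and 0.22 with GC. For E8 against E9 the correlation with GC was 0.15. Whether the trend with extract arose in the cells or in library preparation was not tested. The same trend was measured in HCC1937, another breast cancer line of the series given 66 µg/mL, where the long GC-poor class had a median of -2.03 and the short GC-rich class 1.1; 86.7% of the genes tested in that line were called in either direction.

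**Figure D1:**
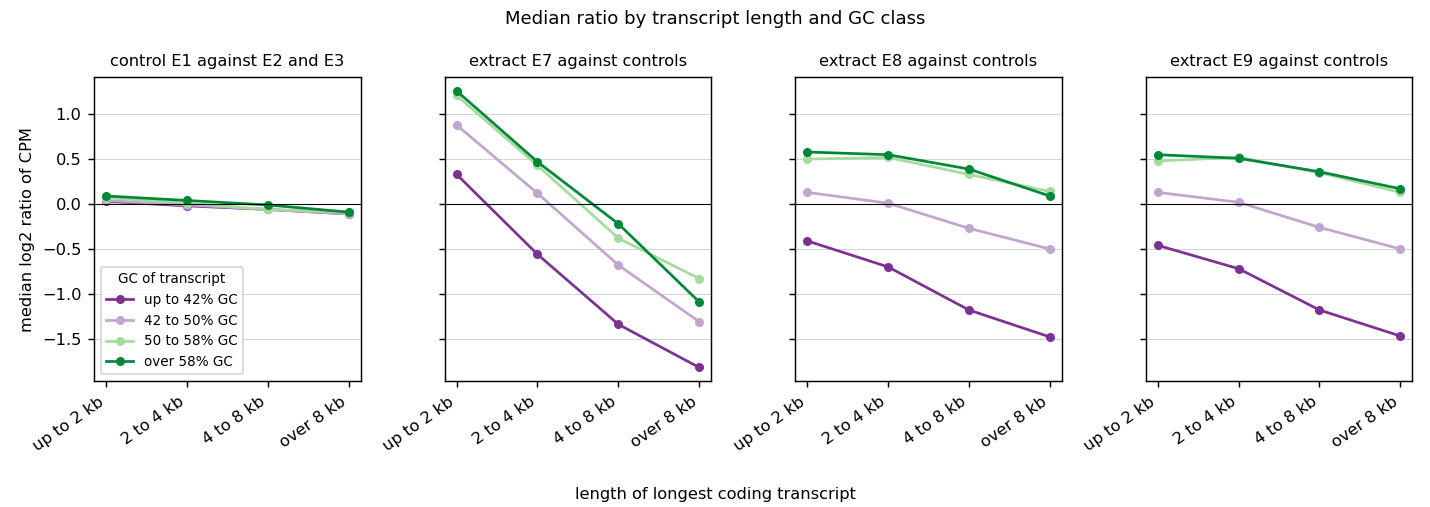
Median log2 ratio of CPM (vertical axis) in 16 classes of genes by length of the longest coding transcript (horizontal axis) and GC content (lines), for control E1 against E2 and E3 and for each extract library against the mean of the controls. Controls stay between -0.11 and 0.09, and E8 and E9 overlap closely and spread by GC. E7 falls with length in every GC class, down to -1.82 over 8 kb at up to 42% GC. E8 and E9 are also lower over 8 kb than at up to 2 kb in every GC class, down to -1.48 and -1.47 at up to 42% GC.

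Among genes with at most 42% GC, those with more exons were lower. Of 795 genes with more than 15 exons and at most 42% GC, 90.2% fell and 0.755% rose, with a median of -1.95, or -1.87 without E7. The offset for length and GC left their median at -0.66. Exon number was not alone in this. With the offset, the correlation of the fold change was -0.198 with exon number and -0.25 with coding length. With the length of the 3′ untranslated region it was 0.147. Which of these features the remaining change follows was not tested. At the other end of exon number, genes with a single exon in their longest coding transcript were frequent among the largest rises. Among nuclear genes averaging 5 CPM or more, 4 of the 17 that rose by at least 3 on the log2 scale have 1 exon (23.5%), as do 12 of 153 between 2 and 3 (7.84%) and 39 of 1578 between 1 and 2 (2.47%). Among 6688 genes between -1 and 1 the share was 1.33%. Without E7 the shares were 4 of 8, 14 of 117 (12.0%) and 2.6% of 1346. As a class, single-exon genes went both ways: of 303 nuclear ones 108 rose and 83 fell, with a median of 0.24, or 0.16 without E7. Some of these have more exons in another coding transcript. Of 226 nuclear genes with 1 exon in every coding transcript, 89 rose and 55 fell. Their median was 0.34, or 0.29 without E7.

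**Figure D2:**
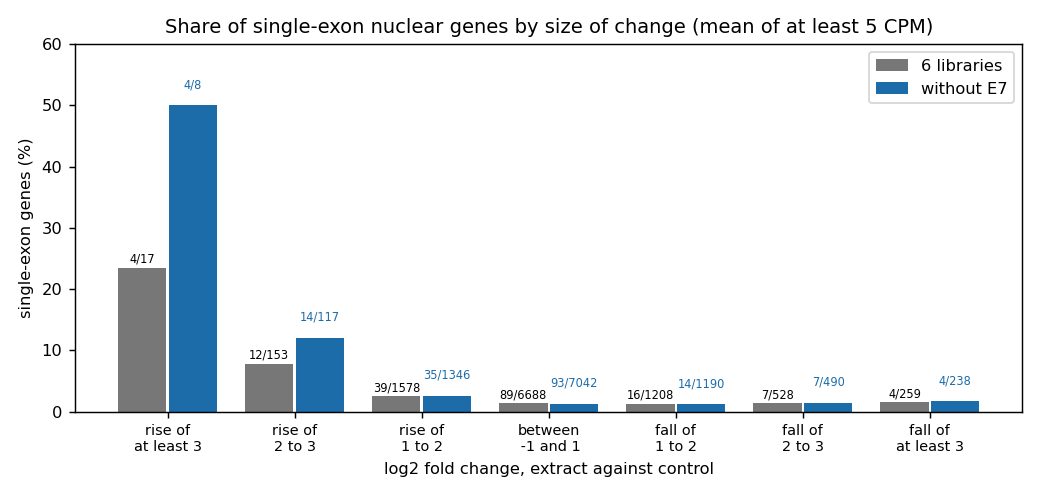
Share of nuclear genes with a single exon (vertical axis, percent) by log2 fold change (horizontal axis), over 6 libraries (grey) and without E7 (blue), for genes averaging 5 CPM or more. Exons are counted in the longest coding transcript. Numbers above the bars are single-exon genes over all genes of the class, and the share goes from 1.33% among genes between -1 and 1 to 23.5% among rises of at least 3.

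The 4 single-exon genes among rises of at least 3 are known for unrelated tasks. LCMT2, 1 of them, also has a coding transcript of 2 exons. KRTAP2-3, a hair keratin-associated protein (chromosome 17, 41059240 to 41060114, GRCh38), stood at 0.895, 0.668 and 0.619 CPM in controls and at 40, 17.1 and 17.4 CPM with extract. Its log2 fold change was 5.07 ± 0.47 (adjusted p = 0.000177), or 4.57 without E7, and its reads could be shared with close copies in the keratin-associated family. HPS6, part of a complex that builds lysosome-related organelles (chromosome 10, 102065390 to 102068038), went from 1.34, 1.89 and 1.48 CPM to 24.4, 30.2 and 30.8 CPM. The 3 extract libraries lay close together for HPS6, whose log2 fold change was 4.18 ± 0.19 (adjusted p = 2.01e-05). DDX28, a helicase of mitochondrial ribosome assembly (chromosome 16, 68021274 to 68023442), went from 1.14, 0.835 and 0.762 CPM to 14, 14.3 and 14.1 CPM. LCMT2, which modifies phenylalanine transfer RNA (chromosome 15, 43323649 to 43330605), went from 0.895, 1.45 and 0.809 CPM to 13.1, 12.3 and 14.1 CPM. For both, no extract library came near a control, and the log2 fold change was 3.94 ± 0.18 for DDX28 (adjusted p = 2.08e-05) and 3.66 ± 0.23 for LCMT2 (adjusted p = 4.66e-05). MOCS3, a sulfur carrier enzyme of molybdenum cofactor and transfer RNA thiolation, also has 1 exon and rose by 2.77 ± 0.15, from 2.04, 2.23 and 2 CPM to 12.5, 15.5 and 14.8 CPM.

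Genes were ranked by the smallest of their absolute log2 fold changes over 6 libraries, without E7 and with the offset, which favours genes that are alike in the 3 fits over those with a larger change in one. Besides those above, the 12 rises that rank highest include these. DKK1, a secreted antagonist of Wnt signalling (chromosome 10, 52314296 to 52318042), stood at 12.9, 12.9 and 15.1 CPM in controls and at 180, 109 and 107 CPM with extract. E7 was the highest, and the log2 fold change was 3.27 ± 0.25 (adjusted p = 8.81e-05), or 2.99 without E7. CXCL2, a chemokine that attracts neutrophils (chromosome 4, 74097035 to 74099293), went from 20.7, 19.8 and 17.5 CPM to 247, 130 and 139 CPM, again with E7 highest (3.15 ± 0.28, adjusted p = 0.000162, or 2.81 without E7). PARS2, the mitochondrial prolyl-tRNA synthetase, rose by 3.28 ± 0.16, from 0.895, 0.946 and 1.05 CPM to 8.68, 9.79 and 9.7 CPM. ZBTB9, a zinc finger protein, rose by 3.55 ± 0.26. Mitochondrially encoded ND1 and CYTB rose by 3.98 ± 0.59 and 3.82 ± 0.54, a size that E7 set in part: ND1 stood at 7073 CPM in E7 and at 1861 and 1957 CPM in E8 and E9, and the values without E7 were 3.06 and 3.01.

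Among the 12 falls that rank highest in the same way, several are long or GC-poor. CEP152, a scaffold of centriole duplication (chromosome 15, 48712928 to 48811146), stood at 28.1, 35.2 and 32.7 CPM in controls and at 0.502, 1.66 and 1.03 CPM with extract, a log2 fold change of -4.82 ± 0.33 (adjusted p = 6.23e-05). OFD1, a protein of centriolar satellites (chromosome X, 13734745 to 13769353), went from 13.8, 13.1 and 16.5 CPM to 0.431, 0.925 and 0.853 CPM (-4.22 ± 0.25, adjusted p = 3.93e-05). CCDC112, another satellite protein, and RPGR, a regulator of ciliary transport, changed by -4.10 and -3.78 on the log2 scale. RAD50, which holds broken DNA ends together (chromosome 5, 132556019 to 132646344), went from 40.9, 40.7 and 44 CPM to 1.94, 2.31 and 0.808 CPM (-4.63 ± 0.34, adjusted p = 7.77e-05). CCNL1, cyclin L1 of the splicing machinery (chromosome 3, 157146508 to 157160760), went from 211, 222 and 231 CPM to 21.1, 20.9 and 19 CPM. The 3 extract libraries were at nearly the same level for CCNL1, at -3.44 ± 0.11 (adjusted p = 1.88e-05) with E7 and -3.46 without it, and CWF19L2, also linked to splicing, fell by 4.21. HMGN5, which binds nucleosomes, fell by 4.18 ± 0.42, with E7 the highest extract library at 5.96 CPM against 1.85 and 2.6 CPM.

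FOS, HSPA1B and H2BC21, also among these falls, have transcripts shorter than the median of 3463 nt over all genes tested. So do CCNL1, CCDC112, CWF19L2 and HMGN5, named above. FOS, the founding AP-1 factor (chromosome 14, 75278774 to 75282230), has a 2158 nt transcript with 52.6% GC and went from 276, 272 and 264 CPM to 23.4, 27.2 and 27.7 CPM (-3.37 ± 0.12, adjusted p = 1.88e-05). HSPA1B, the inducible HSP70 chaperone (chromosome 6, 31827735 to 31830255), went from 4536, 4448 and 4270 CPM to 166, 366 and 346 CPM (-3.92 ± 0.34, adjusted p = 0.00014). Its near-identical neighbour HSPA1A can share its reads, and the pair together stood at 4544, 4457 and 4276 CPM and then at 167, 369 and 348 CPM. H2BC21, a histone H2B gene (chromosome 1, 149884459 to 149886652), went from 86.3, 89.6 and 82.6 CPM to 4.59, 5.93 and 4.62 CPM (-4.08 ± 0.15, adjusted p = 1.88e-05). RGPD6, of a family copied from the nuclear pore gene RANBP2, has a 7165 nt transcript of 39.3% GC and fell by 5.45 ± 0.87, or 7.28 without E7. Its reads moved between copies even among controls, from 17.2 to 35.5 CPM, while RGPD5, RGPD6 and RGPD8 together stood at 60.5, 65.2 and 66 CPM and then at 4.45, 7.05 and 9.7 CPM.

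**Figure D3:**
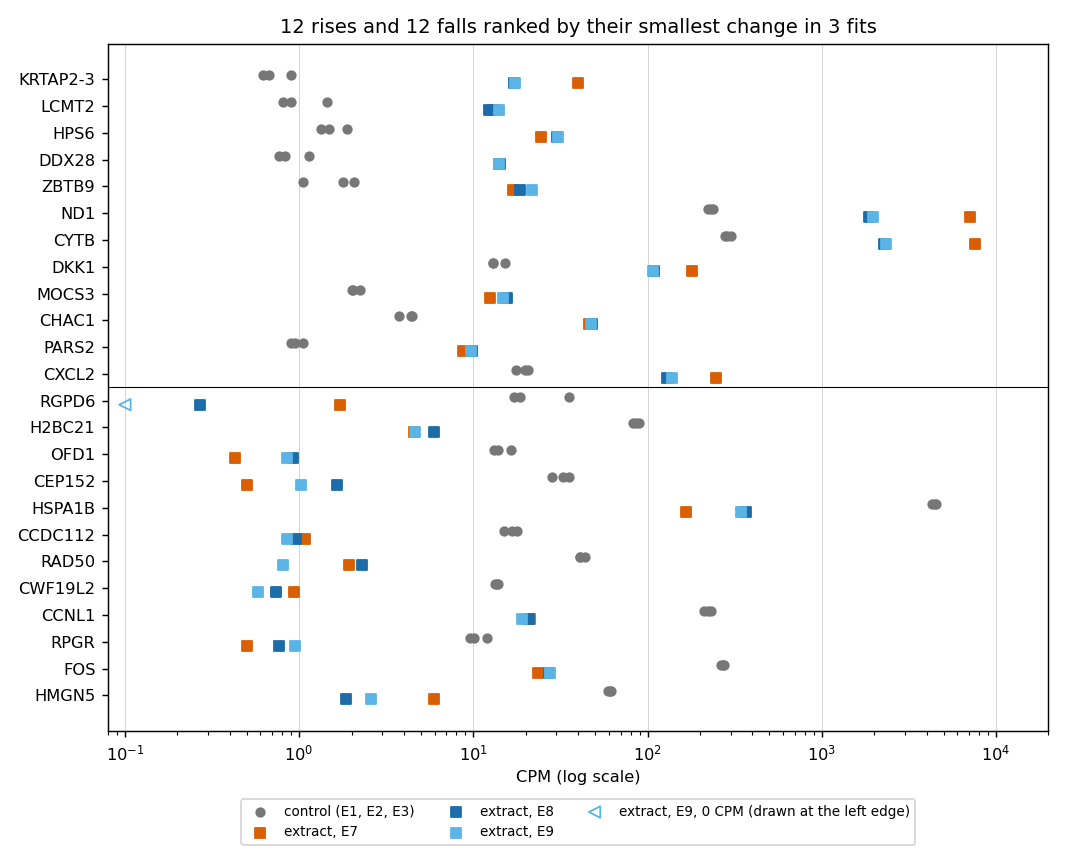
CPM (horizontal axis, log scale) in each library for the 12 rises (top) and 12 falls (bottom) that rank highest by the smallest absolute log2 fold change of 3 fits, all averaging 5 CPM or more and called the same way over 6 libraries, without E7 and with the length and GC offset. Grey circles are the 3 controls and squares the extract libraries, and in every gene all squares lie on the same side of all circles, as the choice of genes required.

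**Figure D4:**
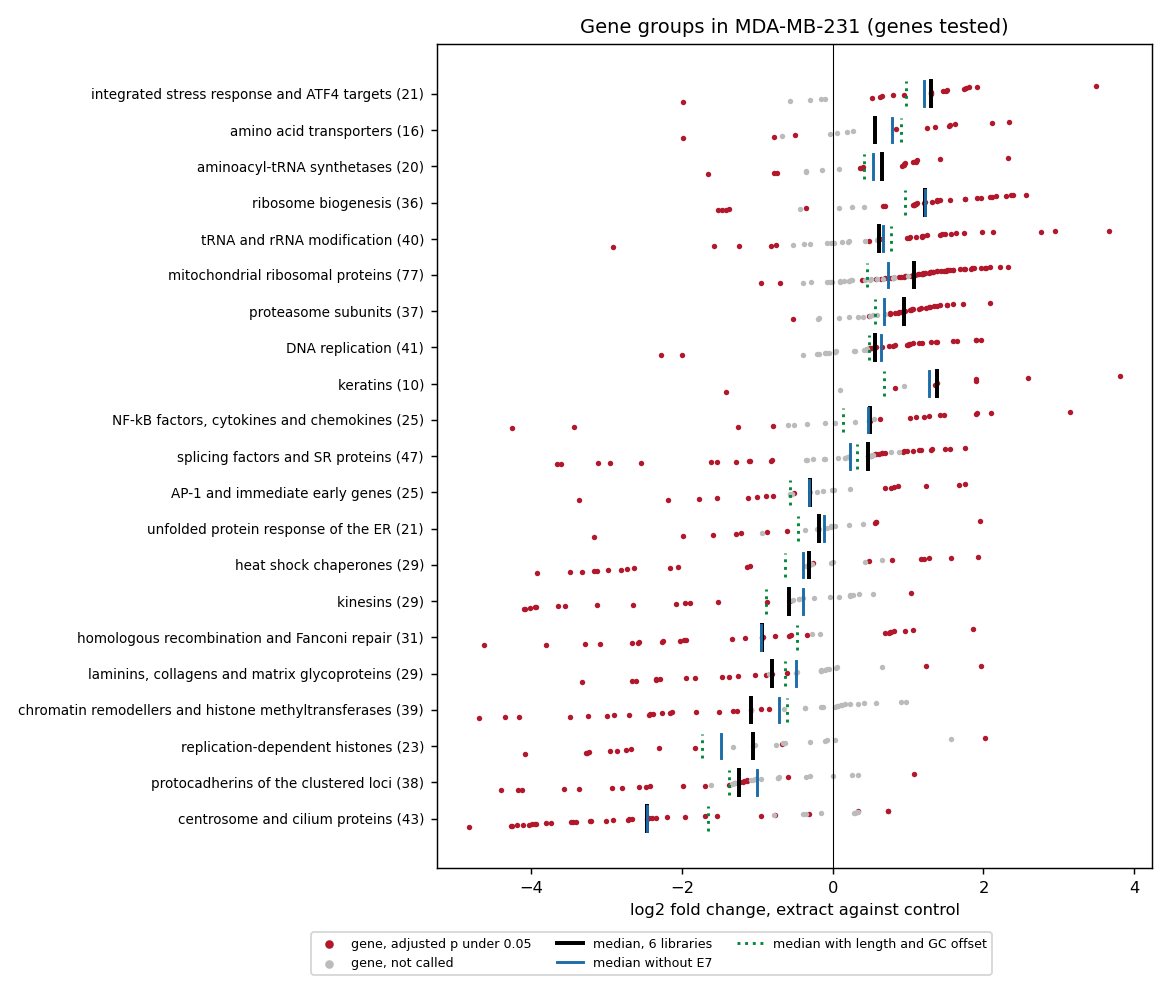
Log2 fold change of extract against control (horizontal axis) for each tested gene of 21 groups, with called genes in red and others in grey. Bars mark the group median over 6 libraries (black), without E7 (blue) and with the length and GC offset (green dots), and the medians over 6 libraries run from 1.38 for keratins and 1.30 for ATF4 targets down to -2.46 for centrosome genes.

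Genes that bring amino acids into the cell and load them onto transfer RNA were mostly higher. Of 16 amino acid transporters tested, 8 rose and 3 fell, with a median log2 fold change of 0.56, or 0.79 without E7 and 0.90 with the offset. SLC1A5, which imports glutamine (chromosome 19, 46774883 to 46788594), stood at 187, 180 and 177 CPM in controls and at 880, 931 and 940 CPM with extract (2.34 ± 0.11, adjusted p = 2.17e-05). SLC1A4, an importer of alanine and serine, went from 13.8, 14.1 and 12.4 CPM to 50.1, 61 and 63.6 CPM (2.11 ± 0.14, adjusted p = 5.02e-05). SLC7A11, the cystine importer with a 9645 nt transcript of 35.4% GC, fell by 1.99 but stood at 0.09 with the offset, without a call. SLC36A4 fell by 0.78 and was called in the other direction with the offset, at 1.07.

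Of 20 cytosolic aminoacyl-tRNA synthetases, 13 rose and 3 fell (median 0.66, or 0.54 without E7 and 0.42 with the offset). FARSA, a subunit of the phenylalanine enzyme, rose from 32.1, 27.7 and 27.1 CPM to 147, 152 and 139 CPM (2.33 ± 0.12, adjusted p = 2.65e-05). HARS1, the histidine enzyme, rose by 1.1 ± 0.14. EPRS1, the enzyme for glutamate and proline, fell from 218, 227 and 229 CPM to 58.2, 82.1 and 73 CPM (-1.66 ± 0.15, adjusted p = 0.000162). Of 21 genes of the integrated stress response tested, 16 rose and 1 fell, with a median of 1.30, or 1.21 without E7 and 0.97 with the offset. CHAC1, an enzyme that breaks down glutathione (chromosome 15, 40952962 to 40956519), went from 3.73, 4.4 and 4.47 CPM to 46.1, 48.1 and 47.5 CPM (3.49 ± 0.12, adjusted p = 1.88e-05). STC2, a secreted glycoprotein, rose by 1.77 ± 0.22. All 3 extract libraries gave nearly the same level of CHAC1, SLC1A5 and FARSA.

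The promoters of 2 of these rises carry the composite element that ATF4 is known to bind. They are shown because the element stands before a RefSeq transcript start (GRCh38.p14) of each, given 5′ to 3′ on the strand of the gene with the match to TGATGNAA, on either strand, in capitals. The CHAC1 stretch is chr15:40953221-40953340 on the plus strand, 250 to 131 bases before the start, and the SLC1A5 stretch is chr19:46784847-46784966 on the minus strand, 152 to 33 bases before its start. Both stretches lie inside the gene spans printed above. The SLC1A5 start is an internal one, and the element is in 1 of the 3 promoters of that gene.
CHAC1: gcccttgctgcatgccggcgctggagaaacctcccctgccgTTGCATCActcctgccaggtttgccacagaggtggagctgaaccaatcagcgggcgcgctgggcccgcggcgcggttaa
SLC1A5: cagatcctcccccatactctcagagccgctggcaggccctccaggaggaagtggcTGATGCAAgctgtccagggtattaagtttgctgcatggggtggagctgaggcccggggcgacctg
This motif was present in 5 of 25 promoters of the transporter list, 7 of 21 of the synthetase list (33.3%) and 3 of 26 of the stress response list (11.5%), against 3.62% of all 35116 promoters and 1.98% of those of tested genes. Over all genes called the same way in the 3 fits, it was as frequent among falls (2.11%) as among rises (2.16%). Promoters ran from 250 bases before to 50 after each start, and some genes have several. Transporters with the motif were SLC1A4, SLC1A5, SLC3A2 (1.62), SLC7A1 (1.54) and SLC38A1 (-0.50), of which the first 4 rose and SLC38A1 fell, although with the offset SLC38A1 was called higher (0.74). Among the 7 synthetases with it, AARS1 (0.95), GARS1 (0.39) and MARS1 (1.1) rose, while CARS1 (0.09), IARS1 (-0.35), NARS1 (-0.35) and TARS1 (-0.14) did not pass. A match describes these letters and is not a bound site.

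Machinery that builds ribosomes was higher. Of 36 ribosome biogenesis genes 27 rose and 5 fell, with a median of 1.22, the same without E7, and 0.96 with the offset. PES1, needed to process the large subunit RNA (chromosome 22, 30576625 to 30607083), went from 33, 32.7 and 35.1 CPM to 180, 172 and 166 CPM (2.36 ± 0.10, adjusted p = 1.99e-05). UTP4, of the small subunit processome, rose from 32.2, 35.4 and 30.4 CPM to 137, 117 and 114 CPM. RNA polymerase I moved with them: its subunits POLR1A (1.56), POLR1B (1.32) and POLR1C (1.22) rose. The snoRNP protein NOP58 fell from 53.6, 51.1 and 55.9 CPM to 23.1, 16.9 and 18 CPM (-1.47 ± 0.15, adjusted p = 0.00025), while its partner NOP56 rose (1.39). DDX21, a helicase of the nucleolus, fell by 1.38.

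Enzymes that modify transfer and ribosomal RNA were higher for 23 of 40, and 5 fell (median 0.62, or 0.67 without E7 and 0.77 with the offset). TRMT61A, which methylates adenosine in transfer RNA, went from 6.37, 5.51 and 4.81 CPM to 44.3, 35.7 and 33.2 CPM (2.76 ± 0.17, adjusted p = 4.57e-05). Its partner TRMT6 rose by 0.61. The 7-methylguanosine enzyme METTL1 (2.95) and its partner WDR4 (1.02) rose, as did both thiolation proteins CTU1 (1.57) and CTU2 (1.43), which use sulfur carried through MOCS3. THUMPD1, a cofactor of transfer RNA acetylation, fell by 1.58 ± 0.19, and the pseudouridine synthase PUS3 by 0.75.

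Translation factors went both ways, with 19 of 37 up and 7 down (median 0.55, or 0.46 without E7 and 0.18 with the offset). EIF4EBP1, the cap-binding inhibitor, rose from 70.8, 62 and 57.9 CPM to 497, 222 and 205 CPM, and its log2 fold change of 2.28 ± 0.36 was 1.76 without E7. EEF2K, the kinase that slows elongation, rose by 1.29 ± 0.10. EIF5B, which joins the ribosomal subunits, fell from 192, 198 and 202 CPM to 21.9, 10.9 and 10.2 CPM (-3.79 ± 0.32, adjusted p = 0.000137). Of 77 mitochondrial ribosomal proteins 54 rose and 2 fell (median 1.08, or 0.74 without E7 and 0.46 with the offset). MRPL15 went from 28.7, 27.7 and 28.7 CPM to 186, 89.9 and 86.3 CPM, 2.09 with E7 and 1.64 without. The 2 falls, MRPL42 (-0.95) and MRPL19 (-0.70), were called as rises with the offset. For MRPL42 the offset rests on a longest coding transcript of 15582 nt, of which 426 nt are coding. Which of its transcripts the cells make was not tested. Cytosolic ribosomal proteins moved with E7: 14 of 78 rose over 6 libraries, and their median went from 0.72 to 0.11 without E7, where 43 rose and 19 fell. With the offset their median was 0.12. With the offset and no E7 it was -0.08, and 24 rose and 44 fell. Over all genes of that fit, 39.2% rose and 38.8% fell.

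The proteasome, which breaks down tagged proteins, was higher: 26 of 37 subunits rose and 1 fell (median 0.94, or 0.68 without E7 and 0.56 with the offset). PSMC4, an ATPase of its base, went from 61.7, 54.7 and 57.7 CPM to 363, 195 and 187 CPM (2.09 ± 0.28, adjusted p = 0.000831, or 1.72 without E7). PSMD5, an assembly factor with a GC-poor transcript, rose by 1.14, and by 1.72 with the offset. PSMC6, the fall of the group (-0.52), was not called with the offset (0.18). Of 46 lysosome and autophagy genes 14 rose and 10 fell. ATP6V0C of the proton pump rose by 1.59 ± 0.18 and the autophagy receptor SQSTM1 by 1.14 ± 0.14, whereas RB1CC1, which starts autophagosomes, fell from 83.6, 91.6 and 98.8 CPM to 3.59, 4.74 and 4.8 CPM.

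Chaperones divided. Of 29 tested, 16 fell and 7 rose, with a median of -0.32, or -0.40 without E7 and -0.63 with the offset. HSP90AA1, the inducible cytosolic HSP90, stood at 4358, 4426 and 4517 CPM in controls and at 502, 488 and 494 CPM with extract (-3.16 ± 0.14, adjusted p = 1.96e-05). DNAJB4 (-3.33), CHORDC1 (-3.13), HSPA6 (-2.81), HSPA4L (-2.73), HSPA8 (-2.05) and HSPD1 (-1.13) fell too. HSPB8, a small chaperone of selective autophagy, rose from 7.16, 6.34 and 6.33 CPM to 26.3, 23.5 and 25.6 CPM (1.93 ± 0.12, adjusted p = 4.12e-05). The HSP90 co-chaperones FKBP4 (1.28), AHSA1 (1.21) and STIP1 (0.79), the ubiquitin ligase STUB1 (1.57) and the factor HSF1 itself (1.17) rose. So HSP90AA1 fell while 3 of its co-chaperones rose, but CHORDC1, another HSP90 partner, fell with it. HSP90AB1, the constitutive form, was at -0.27 and did not pass.

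A heat shock element of 3 units, that is GAA, TTC and GAA with 2 free bases between neighbours, on either strand, was found in 8 of 36 promoters of the chaperone list (22.2%), against 0.49% of all promoters and 0.349% of those of tested genes. Over all genes called the same way in the 3 fits, the element was in 0.282% of promoters of rises and 0.475% of those of falls. It is shown in capitals for 2 of the falls, on the strand of the gene: HSP90AA1 at chr14:102087068-102087187 (minus), 143 to 24 bases before the start, and CHORDC1, an HSP90 partner, at chr11:90223050-90223169 (minus), 120 to 1 bases before it.
HSP90AA1: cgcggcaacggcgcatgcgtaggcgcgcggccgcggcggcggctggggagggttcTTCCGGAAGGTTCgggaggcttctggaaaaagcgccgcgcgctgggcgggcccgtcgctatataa
CHORDC1: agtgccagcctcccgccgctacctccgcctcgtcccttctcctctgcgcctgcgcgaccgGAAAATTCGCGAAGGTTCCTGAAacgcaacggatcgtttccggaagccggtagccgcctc
The CHORDC1 stretch holds 3 overlapping matches and HSP90AA1 has 1, in 1 of the 2 promoters of that gene, at an internal start. Of the 8 chaperone genes with the element, HSPA6, HSPA8, HSP90AA1, HSPD1, CHORDC1 and DNAJA1 (-0.32) fell, while HSP90AB1 (-0.27) and DNAJB6 (0.01) did not pass. The shorter element of 2 units, TTCNNGAA, which the longer one contains, was in 12 of the 36 promoters against 7.74% of all. It was also found in chaperones that rose, STIP1 and HSPA9 (0.48).

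Genes of the unfolded protein response in the endoplasmic reticulum went both ways, with 4 of 21 up and 7 down (median -0.18, or -0.46 with the offset). XBP1, a factor of this response, rose from 49.6, 52.8 and 51.7 CPM to 239, 182 and 179 CPM (1.96 ± 0.15, adjusted p = 8.44e-05). The chaperones HSP90B1 and HSPA5 fell, HSP90B1 from 1329, 1343 and 1390 CPM to 132, 159 and 163 CPM (-3.16 ± 0.14) and HSPA5 from 2127, 2131 and 2154 CPM to 700, 985 and 963 CPM (-1.28 ± 0.17). Of 30 genes of NRF2 and antioxidant defence 10 rose and 5 fell. KEAP1, the inhibitor of NRF2, rose by 1.76 ± 0.12, and NFE2L2, which encodes NRF2, fell from 157, 155 and 153 CPM to 67.8, 41 and 38.6 CPM (-1.66 ± 0.23, adjusted p = 0.000986). NQO1, a target of NRF2, rose by 1.13 ± 0.23. Metallothioneins and zinc transporters gave 4 falls and no rise in 8, among them MT1X, which fell by 1.42 with E7 (127, 44.7 and 51.1 CPM against 205, 196 and 192) and 2.04 without.

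Centrosome and cilium genes were mostly lower, with the lowest median of the groups plotted above. Of 43 tested, 32 fell and 3 rose, at a median of -2.46, the same without E7 and -1.66 with the offset. Besides CEP152, the centriole protein CNTRL fell from 59.3, 66.4 and 63.3 CPM to 2.8, 5.36 and 4.04 CPM (-3.93 ± 0.24, adjusted p = 3.96e-05). PCM1 (-4.27), SASS6 (-4.11) and CEP290 (-3.73) fell as well, whereas CEP41 (0.33 ± 0.11) rose. Their median transcript has 5632 nt and 41.1% GC. Of 29 kinesins 15 fell and 1 rose (median -0.58, or -0.40 without E7 and -0.89 with the offset). The mitotic motors KIF15 and KIF18A fell, KIF15 from 42.5, 45.8 and 51.3 CPM to 1.79, 3.43 and 2.83 CPM and KIF18A from 40.9, 40.4 and 45.9 CPM to 2.01, 2.74 and 2.96 CPM. KIF1C, a motor of vesicle transport, rose by 1.04 ± 0.31, and by 1.35 without E7, since E7 stood at 302 CPM against 693 and 678 CPM in E8 and E9.

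Genes of homologous recombination and Fanconi repair fell for 21 of 31 and rose for 8 (median -0.94, or -0.95 without E7 and -0.47 with the offset). ATM, the kinase that senses double-strand breaks (chromosome 11, 108222484 to 108369102), went from 114, 131 and 135 CPM to 6.39, 9.48 and 11.2 CPM (-3.80 ± 0.23, adjusted p = 3.96e-05). DNA replication genes rose for 25 of 41 and fell for 2 (median 0.56, or 0.64 without E7 and 0.48 with the offset), with GINS2 up by 1.97 ± 0.33, or 1.51 without E7, and POLA1 down by 2.00 ± 0.22. Of 29 cyclins, CDKs and E2F factors 10 rose and 13 fell. CDC25A, a phosphatase that activates CDK2, rose from 14.1, 14.5 and 15.6 CPM to 54.8, 71.3 and 72.7 CPM (2.17 ± 0.15, adjusted p = 5.92e-05), and CCND1 by 1.36. The inhibitor CDKN1B fell from 162, 166 and 163 CPM to 46.9, 57 and 53.7 CPM (-1.64 ± 0.11), and the pocket protein RBL2 by 2.45 ± 0.37. Mitosis genes gave 9 rises and 15 falls in 37, with CDC20 up by 1.67 ± 0.15 and CENPM by 1.78, and NUF2 down by 3.00 ± 0.16.

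Chromatin remodellers and histone methyltransferases were lower, and rises among them were called only where E7 was left out or the offset was used. Of 39, none rose and 21 fell over 6 libraries, while without E7 13 rose and 23 fell. Their median was -1.08, or -0.71 without E7 and -0.61 with the offset, and their median transcript has 8469 nt. BAZ2B, a bromodomain protein, went from 19.8, 18.6 and 23.1 CPM to 0.933, 1.08 and 0.988 CPM (-4.34 ± 0.16). SRCAP, which exchanges histone variants, was low in E7 alone and stood at 22.4, 23.9 and 34.3 CPM in controls and at 5.17, 58.5 and 55.9 CPM with extract. Replication-dependent histones, which are short, fell for 11 of 23 and rose for 1, with a median of -1.06, or -1.48 without E7 and -1.73 with the offset. H2AC18 went from 258, 227 and 203 CPM to 50.2, 20.2 and 18.5 CPM (-2.96 ± 0.41, adjusted p = 0.00105), and H2BC18 fell by 3.27 ± 0.36. Histone genes are close copies of each other, and most of their RNA lacks the poly(A) tail that the library preparation selects, so their values describe the captured part. Of 38 clustered protocadherins, cell adhesion genes of which those of the alpha and gamma clusters share their last exons, 21 fell and 1, PCDHGC3, rose (median -1.24, or -1.01 without E7). PCDHGC3 stood at 13.6, 10.8 and 10 CPM in controls and at 19.7, 26.7 and 26.4 CPM with extract. PCDHGB3 stood at 0.846, 1.17 and 1.38 CPM in controls and at 0, 0.116 and 0 CPM with extract.

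Genes of RNA processing went both ways, and those named here were chosen in part for keeping their call with the offset. Of 47 splicing factors 19 rose and 12 fell (median 0.47, or 0.23 without E7 and 0.32 with the offset). With the offset, 10 of these 12 falls and 18 of these 19 rises kept their sign. CLK1, a kinase of SR proteins, went from 220, 221 and 232 CPM to 25.3, 26.2 and 26.1 CPM (-3.11 ± 0.10, adjusted p = 1.88e-05; -3.40 with the offset). LUC7L3 fell by 3.66 ± 0.23, PRPF4 rose by 1.32 ± 0.11 and SF3A2 by 1.75 ± 0.23. Among 42 genes of the poly(A) tail, decay and export 13 rose and 15 fell. The exosome subunits EXOSC4 and EXOSC2 rose, EXOSC4 from 8.46, 7.46 and 8.14 CPM to 137, 52.3 and 46.2 CPM (3.29 ± 0.46, or 2.63 without E7). UPF3B, of nonsense-mediated decay, fell by 3.18 ± 0.32, and THOC2, of mRNA export, from 83.4, 86.9 and 89.8 CPM to 5.09, 4.93 and 6.51 CPM. ZNF-named zinc finger genes fell for 203 of 445 and rose for 120. Their median was -0.50, or -0.46 without E7, and -0.04 with the offset, where 129 rose and 128 fell. ZNF416 rose from 0.497, 0.501 and 0.619 CPM to 8.4, 6.86 and 7.5 CPM (3.79 ± 0.20).

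The 4 kinase genes in the title of the series, which the series chose, fell over 6 libraries, without E7 and with the offset. ROCK1 and ROCK2 drive actomyosin contraction, PIK3CA is a catalytic subunit of phosphoinositide 3-kinase and JAK2 serves cytokine receptors. Without E7 their log2 fold changes were -4.47, -3.57, -3.20 and -2.38 in that order. With the offset they were smaller, at -2.80 for ROCK1, -2.30 for ROCK2, -1.28 for PIK3CA and -1.31 for JAK2. ROCK1, ROCK2 and PIK3CA belong to the class over 8 kb with at most 42% GC, of which 86.1% fell, and JAK2 to the class of 4 to 8 kb with at most 42% GC, of which 77.6% fell. PIK3CA stood at 40.9, 43.7 and 42.8 CPM in controls and at 2.73, 4.82 and 4.36 CPM with extract, and JAK2 at 5.92, 6.84 and 7.19 CPM and then at 0.861, 1.43 and 1.08 CPM.

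PPP1R12A, the myosin phosphatase subunit that ROCK acts on, fell from 90.2, 99.8 and 103 CPM to 5.74, 7.78 and 6.69 CPM (-3.85 ± 0.16, adjusted p = 1.88e-05). MYL9, a light chain of myosin, rose from 50.7, 46.1 and 44.3 CPM to 235, 116 and 119 CPM (1.73 ± 0.29, or 1.33 without E7). RND1, which opposes contraction, fell by 1.83 ± 0.23. Of 35 actin genes 12 rose and 8 fell: CORO1C rose by 1.07 ± 0.20, ARPC4 by 1.28 ± 0.18, CALD1 fell by 2.66 ± 0.14 and TPM2 by 1.21 ± 0.20. Of 24 integrin and focal adhesion genes 6 rose and 10 fell. ITGA6, which pairs to bind laminin, fell from 363, 389 and 388 CPM to 47.4, 112 and 110 CPM (-2.08 ± 0.33), ITGB3 fell by 1.92, and BCAR1, an adhesion scaffold, rose by 1.46 ± 0.17.

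Matrix genes were mostly lower. Of 29 laminins, collagens and glycoproteins 15 fell and 2 rose, with a median of -0.81, or -0.49 without E7 and -0.63 with the offset. LAMA3, a chain of the laminin that epithelia rest on (chromosome 18, 23689443 to 23956222), went from 45.2, 55.4 and 49.9 CPM to 3.3, 6.17 and 5.39 CPM (-3.32 ± 0.24, adjusted p = 7.38e-05; -3.19 with the offset). The rises were CCN2, from 115, 108 and 109 CPM to 434, 426 and 444 CPM (1.97 ± 0.10), and CCN1, from 996, 979 and 980 CPM to 2088, 2424 and 2467 CPM, both matricellular proteins. Of 18 matrix proteases and inhibitors 6 rose and 4 fell. SERPINB2, an inhibitor of plasminogen activators, rose from 2.59, 2.62 and 2.24 CPM to 19.9, 11.6 and 13.5 CPM (2.59 ± 0.24), and the collagenase MMP1 by 1.17 ± 0.12. The gelatinase MMP9 fell from 10, 10.4 and 9.05 CPM to 0.789, 3.12 and 2.07 CPM (-2.23 ± 0.39, adjusted p = 0.00273). Among 8 regulators of the epithelial-mesenchymal transition tested, SNAI2 rose (0.52 ± 0.14) and 4 fell, with ZEB1 going from 61.4, 57.9 and 63.3 CPM to 4.02, 4.82 and 6.91 CPM (-3.52 ± 0.21).

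Keratins, the filaments of epithelial cells, rose for 7 of the 10 tested and fell for 1 (median 1.38, or 1.28 without E7 and 0.68 with the offset). KRT7 (chromosome 12, 52232520 to 52252186) went from 107, 99.6 and 105 CPM to 835, 523 and 516 CPM (2.59 ± 0.22, adjusted p = 0.000136), and KRT18 from 282, 280 and 267 CPM to 1500, 781 and 812 CPM. E7 was the highest in both, and without it the values were 2.33 and 1.54. KRT17 rose by 3.81 ± 0.70 from at most 0.199 CPM in controls to 0.925 to 2.22 CPM. KRT15 fell from 23.5, 23.4 and 24.9 CPM to 10.3, 8.67 and 8.17 CPM.

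Targets of YAP and TEAD, factors of mechanical signalling, rose for 10 of 22 and fell for 6, with a median of 0.17, or 0.49 without E7. F3, tissue factor (chromosome 1, 94529225 to 94541800), went from 26.3, 25 and 24.3 CPM to 149, 160 and 159 CPM (2.63 ± 0.11, adjusted p = 1.88e-05). ANKRD1 went from 21.7, 19.6 and 19.7 CPM to 110, 102 and 105 CPM (2.38 ± 0.11), while NT5E, the ectoenzyme CD73, fell by 1.03 ± 0.13. The 3 extract libraries agreed within a narrow range for both rises, and the offset left F3 at 2.64 and ANKRD1 at 2.35. The TEAD core GGAATG, on either strand, was found in 10 of 22 promoters of this list (45.5%), against 14% of all promoters and 11.4% of those of tested genes. Over all genes called the same way in the 3 fits, it was in 10.9% of promoters of rises and 12.1% of those of falls. The list was drawn up as targets of TEAD, so the share describes the list and not the response to extract.

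Immediate early genes and their brakes were mixed. Of 25 AP-1 and immediate early genes 7 rose and 9 fell (median -0.30, or -0.57 with the offset). While FOS fell, its relative FOSL1, common in mesenchymal lines, rose from 206, 204 and 195 CPM to 935, 511 and 495 CPM (1.68 ± 0.27, or 1.33 without E7). IER5, a single-exon target of HSF1, fell from 549, 534 and 524 CPM to 88, 132 and 133 CPM (-2.19 ± 0.18), and KLF2 rose by 1.76 ± 0.19. Of 9 dual-specificity phosphatases, which switch off MAP kinases, 3 rose and 5 fell. DUSP6 fell from 463, 441 and 451 CPM to 134, 136 and 139 CPM (-1.73 ± 0.10, adjusted p = 3.34e-05) and DUSP1 by 1.28 ± 0.11, and DUSP14 rose by 2.00 ± 0.22. SPRY4, another brake of growth factor signals, fell by 1.14 ± 0.22, and the ligand HBEGF rose from 186, 178 and 182 CPM to 382, 356 and 352 CPM. In TGF-beta signalling 4 of 23 rose and 10 fell, and the median turned from -0.23 to 0.32 with the offset. INHBA rose by 1.09 ± 0.21 and SMAD3 fell by 1.36 ± 0.28.

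Inflammatory genes rose more often than they fell. Of 25 NF-kB factors, cytokines and chemokines 14 rose and 4 fell (median 0.50, or 0.47 without E7 and 0.14 with the offset). IL6 went from 3.68, 3.62 and 3.43 CPM to 16.4, 12.9 and 11.3 CPM (1.91 ± 0.18, adjusted p = 0.000191), and the colony-stimulating factors CSF3 (2.10) and CSF2 (1.47), IL24 (1.90) and CXCL3 (1.43) rose too. BIRC3, an inhibitor of apoptosis and NF-kB target (chromosome 11, 102317450 to 102339403), went from 137, 148 and 149 CPM to 5.53, 9.25 and 7.86 CPM (-4.25 ± 0.21, adjusted p = 2.46e-05). REL fell by 3.43 ± 0.31, while RELA (1.21) and RELB (1.28) rose. Interferon-induced genes fell for 14 of 30 and rose for 6 (median -0.49, or -0.33 without E7). SAMD9 went from 6.62, 8.85 and 7.76 CPM to 0, 0.347 and 0.404 CPM, and DDX60 fell by 3.85 ± 0.32. ISG15 rose from 70.1, 63.7 and 65.2 CPM to 297, 133 and 132 CPM (1.5 ± 0.33, or 1.01 without E7).

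Of 32 apoptosis regulators 16 rose and 6 fell (median 0.43, or 0.39 without E7 and 0.25 with the offset). The adaptor FADD of death receptors went from 10.6, 14.1 and 8.52 CPM to 51.9, 40.5 and 40.2 CPM (1.99 ± 0.22, adjusted p = 0.000361), and the kinase RIPK1 from 12.6, 12.5 and 11.1 CPM to 27.8, 40.2 and 42.7 CPM. The inhibitors BIRC2 (-2.02), XIAP (-1.36, and 0.24 with the offset, without a call) and MCL1 (-1.18) fell, as did BMF, a killer protein of the BCL2 family (-1.65 ± 0.36). In the other direction BIRC5 (1.11), BCL2L1 (0.81), BAX (0.98) and CASP8 (0.92) rose. So members that promote and members that restrain cell death are found on both sides. Of 24 p53 targets 6 rose and 8 fell. SESN2, a stress-induced inhibitor of mTOR complex 1, rose by 1.81 ± 0.20, GADD45A by 1.03 ± 0.10, and GADD45B fell by 1.22 ± 0.10. MDA-MB-231 carries a mutant p53, as is known for this line.

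In metabolism, 12 of 33 genes of glycolysis and the hypoxia response rose and 13 fell, with a median of -0.03. The glucose transporters parted: SLC2A1 rose from 137, 124 and 125 CPM to 237, 261 and 253 CPM, and SLC2A3 fell from 518, 542 and 538 CPM to 98, 135 and 140 CPM (-2.10 ± 0.16, adjusted p = 9.83e-05). ADM, the peptide adrenomedullin, fell from 84.1, 82.7 and 82.9 CPM to 25.6, 21.9 and 23.3 CPM (-1.82 ± 0.11). Cholesterol genes fell for 12 of 25 and rose for 5. Among solute carriers, 72 of 202 rose and 58 fell. The phosphate importer SLC20A1 fell from 1000, 1011 and 1031 CPM to 154, 232 and 231 CPM (-2.30 ± 0.19). Among PI3K, AKT and mTOR genes 7 of 32 rose and 14 fell, with AKT1S1, an inhibitor within mTOR complex 1, up by 1.97 ± 0.11 and PIK3C2A down by 3.98 ± 0.16. In the JAK and STAT list 4 of 30 rose and 15 fell, with SOCS2, a feedback inhibitor, up by 1.1 ± 0.13.

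Some genes went against the trend with length and GC. Among the 490 long GC-poor genes, the largest rises among those averaging 5 CPM or more included WDR3, of the small subunit processome, and HNRNPA0, an RNA-binding protein. WDR3 stood at 38.2, 39.3 and 41.1 CPM in controls and at 54, 107 and 109 CPM with extract (1.19 ± 0.27, adjusted p = 0.00814, or 1.46 without E7). HNRNPA0 went from 177, 167 and 169 CPM to 271, 380 and 366 CPM (0.99 ± 0.15). WDR12, also of ribosome biogenesis, rose by 0.67 ± 0.10, RIMS2 by 0.96 ± 0.13, FBXO22 by 0.55 ± 0.19 and ALG14 by 1.79 ± 0.36. Among the 871 short GC-rich genes, besides ADM and H2AC18, CDKN1C, an inhibitor of cyclin-dependent kinases, fell from 38.1, 36.2 and 33.3 CPM to 9.26, 6.01 and 5.52 CPM (-2.39 ± 0.21, adjusted p = 0.000159). RAB26, a vesicle GTPase, fell by 2.42 ± 0.21, FAM229A by 2.38 ± 0.14 and C11orf96 by 1.99 ± 0.20.

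Library E7 differed from E8 and E9 in mitochondrial transcripts, in transcripts at both ends of the length range and in some genes that share sequence. Mitochondrially encoded genes took 10.7% of its counts, against 4.63% in E8, 4.78% in E9 and 2.76% to 2.87% in controls. Genes of at most 2 kb were at a median of 0.68 in E7 relative to E8 and E9, and those over 8 kb with more than 58% GC at -1.17. Of 13 mitochondrially encoded genes tested, 11 rose and 0 fell over 6 libraries (median log2 fold change 1.88). Without E7, 11 rose and 2 fell (median 1.26). In ND4, unlike most of them, E7 lay above the controls and E8 and E9 below. ND4 stood at 8987, 8643 and 8769 CPM in controls and at 23897, 7243 and 7437 CPM with extract. RPL28, a ribosomal protein, was at 3109 CPM in E7 and at 889 and 869 CPM in E8 and E9, with controls from 625 to 707 CPM. PKD1, with a 14138 nt transcript of 67.0% GC, was at 14.7 CPM in E7 against 106 and 105 CPM, with controls from 69.6 to 80.3 CPM, and FLG, with 12747 nt, at 0.861 against 32.8 and 33.1 CPM. EIF3CL, a copy of the initiation factor gene EIF3C, stood at 346 CPM in E7 and at 6.9 and 0 CPM in E8 and E9, while the sum of both copies was 919, 712 and 743 CPM against 453 to 469 CPM in controls. The readthrough gene ISY1-RAB43 had 0 CPM in E7 against 45.1 and 45.9 CPM, and ABCF2-H2BK1 1.22 against 49.2 and 48.8 CPM. These genes were picked for their difference, which is given as a description.

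**Figure D5:**
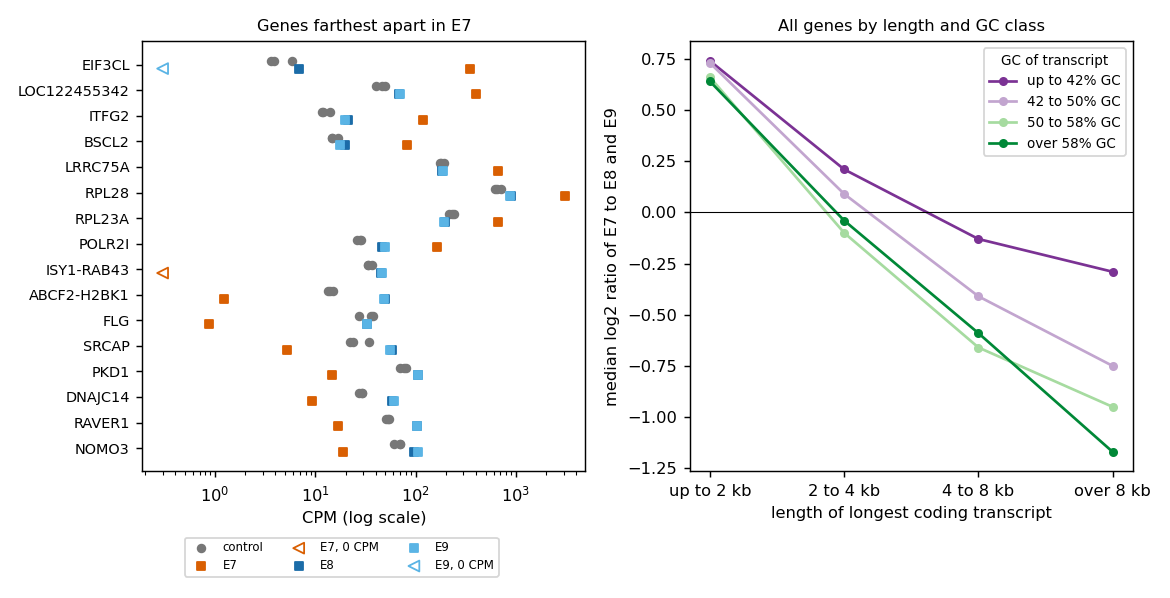
Left, CPM (log scale) in each library for the 8 genes highest and the 8 lowest in E7 relative to E8 and E9, with values of 0 drawn as open triangles at the left edge. Right, median log2 ratio of E7 to E8 and E9 by transcript length and GC content, which falls from 0.64 to 0.74 at up to 2 kb to between -0.29 and -1.17 over 8 kb.

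Of the markers of the line, the mesenchymal filament VIM stood at 3870, 3754 and 3694 CPM in controls and at 5943, 3470 and 3526 CPM with extract, CD44 at 587 to 740 CPM, and CDH1, the epithelial cadherin, had no reads in any of the 6 libraries. The estrogen receptor ESR1 was at 0.476 CPM or below in every library while the progesterone receptor PGR was low but had reads, at 2.69, 3.23 and 2.81 CPM in controls and 0.359, 0.539 and 0.449 CPM with extract, and fell (-2.64). The receptor ERBB2 stood at 51.9, 51.3 and 53 CPM and then at 44.4, 87 and 90.4 CPM, without a call (0.51). AXL, a receptor kinase of mesenchymal lines, rose from 499, 498 and 506 CPM to 1125, 1348 and 1313 CPM. Of 6 leukocyte markers 3 had reads, and CD68, which many tumour lines make, gave nearly all of their summed level of 306 to 321 CPM in controls and 428 to 531 CPM with extract. Fibroblast markers summed to 19.8 to 22.9 CPM in controls and 4.16 to 6.87 CPM with extract, endothelial ones to at most 4.51 CPM and adipocyte ones to at most 0.359 CPM. Of 15 housekeeping genes 6 rose and 1 fell (median 0.25, or 0.22 without E7): ACTB went from 2412, 2339 and 2307 CPM to 7051, 5502 and 5476 CPM (1.35 ± 0.17), while PGK1 stood at 1428, 1420 and 1428 CPM and then at 1530, 1397 and 1427 CPM (0.03 ± 0.12). Of 395 olfactory receptor genes, which breast cells are not known to use, 28 to 34 had reads in controls and 12 to 21 with extract, and their summed level was 7.85 to 9.13 CPM in controls and 2.24 to 3.73 CPM with extract. The part of this in other falls of long or weakly expressed genes was not tested.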

How the data were processed

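Poly(A) RNA was captured on poly-T beads and sequenced from libraries made with a stranded total RNA kit, per the labels' protocols. The deposited values are expected counts per gene from the authors' quantification, not whole numbers, with 52.8% of values not whole. Reads were checked with FastQC 0.12.1, trimmed with fastp 0.23.4 and quantified with Salmon 1.10.3 against GRCh38, and DESeq2 and R 4.4.1 were also used, per the submitters' processing notes. The annotation release and the step from transcripts to genes are not given in the sources used. Expected counts share reads among copies, so genes with near-identical partners are uncertain.

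Groups came from sample titles. The deposited counts were rounded to whole numbers, 1 row without a symbol was left out of the gene count, and genes were filtered with filterByExpr and scaled by TMM. The test was edgeR 4.0.16 quasi-likelihood (limma 3.58.1, R 4.3.3) with Benjamini-Hochberg adjustment over all genes tested. CPM was computed on TMM-scaled libraries. The length and GC offset was a smooth surface per library (mgcv 1.9.3) over the longest coding transcript of GENCODE 29 (99.5% of tested genes). It assumes that length and GC carry no biology, so it can remove real change. Alternatives included DESeq2 1.42.0 and limma voom. The test was run on simulated data with known changes first. These data used a scaled spread of the controls in both groups, so they do not cover the wider spread that E7 gives the extract group. Motifs were searched in RefSeq promoters of GRCh38.p14. Besides those described, the cAMP response element and 4 motifs with a list of their own were searched. AP-1 was in 1 of 24 promoters of its list (4.17%, against 5.35% of those of tested genes). The sterol motif was in 1 of 24 of the cholesterol list (4.17%, against 1.11%). The antioxidant motif was in 7 of 31 of the NRF2 list (22.6%, against 14.3%). The metal motif was in 3 of 8 of the metallothionein list (37.5%, against 28.4%).

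Named genes were the 12 rises and 12 falls that rank highest by the smallest absolute log2 fold change of the 3 fits, with groups that do not overlap, a mean of at least 5 CPM and the same call over 6 libraries, without E7 and with the offset. To them were added up to 2 rises and 2 falls per list by the same ranking, genes against the trend, single-exon genes, genes that differ in E7 and markers. Other list members are named to describe a partner or a group. The members and lists were chosen with earlier results of these data known.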

Additional observations from a re-analysis of the deposited data

How the results depend on the processing

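The counts of rises and falls stayed within 1.5 times of 3903 and 4111 under every alternative run: 3949 and 4073 with RLE size factors, 3923 and 4121 without the filter on low counts, 4203 and 4302 with DESeq2, 3889 and 3890 with limma voom, 4667 and 4636 with all 12 libraries in 1 fit. Leaving out 1 library at a time gave 2902 to 5342 rises and 3375 to 5364 falls, the most without E7. The correlation with transcript length was -0.265 with the median coding transcript in place of the longest, and -0.472 to -0.313 when 1 library was left out. The correlation with GC content was 0.485 to 0.537 and that with exon number -0.306 to -0.191 when 1 library was left out. Of 225 named and tested genes, 187 kept direction and call under every alternative. Many of them were chosen for the same call without E7 and with the offset, which are among these alternatives. The share is therefore set in part by the choice of genes. The cause of the changes of sign below was not tested. They are given first for genes called with or without the change.

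With the length and GC offset the sign changed for CARS1 (-0.39), CD68 (-0.13), DNAJB6 (-0.41), MRPL19 (0.27), MRPL42 (1.00), PSMC6 (0.18), SLC36A4 (1.07), SLC38A1 (0.74), SLC7A11 (0.09), TARS1 (0.28) and XIAP (0.24). With the offset and no E7 it changed for the same genes (-0.32, -0.11, -0.29, 0.18, 0.66, 0.17, 0.75, 0.75, 0.13, 0.25 and 0.22 in that order), and for GARS1 (-0.01), IARS1 (0.18), ND4 (-0.32) and VIM (-0.65). Leaving out 1 library at a time took CD44 from -0.11 to 0.07, ISY1-RAB43 from -0.58 to 0.41, ND4 from -0.25 to 0.83 and VIM from -0.10 to 0.33, and only leaving out E7 changed the sign of these 4. Sign changes also occurred for genes with no call in either fit: EIF3CL went from 4.71 to -0.31 without E7, -0.83 with the offset and no E7 and -0.93 with limma voom. RPL28 (-0.01) changed with the offset and no E7, IARS1 (0.11) and VIM (-0.45) with the offset, PGK1 (-0.01) without E7 and DNAJB6 (-0.03) without E8 or E9. Of 56 list medians, 3 of at least 0.3 in size lost their sign, each only with the offset and no E7. They were cytosolic ribosomal proteins (0.72 to -0.08), actin genes (0.33 to 0.0) and the marker list with ESR1, ERBB2 and KRT18 (0.55 to -0.05). No paired analysis was possible because controls and extract libraries share no replicate number in the labels. Depth was at least 16170545 counts per library, and genes under about 0.2 CPM rest on few reads. All gene counts depend on 3 libraries per group, 1 of which differs from the other two.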

Other observations

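Olfactory receptors aside, 2 groups not described above went in opposite ways. Of 79 nuclear genes for subunits of the respiratory chain, 28 rose and 1 fell, with a median log2 fold change of 0.72, or 0.27 without E7, where 49 rose and 20 fell. With the length and GC offset the median was 0.28, and 27 rose and 9 fell. With the offset and no E7 it was 0.1, and 37 rose and 24 fell. Over all genes tested, 30.3% rose and 32% fell in the 6-library fit without the offset. Without E7 these shares were 40.8% and 41%, with the offset 31.9% and 31.3%, and with the offset and no E7 39.2% and 38.8%. Of 16 genes of fatty acid synthesis and activation, 10 fell and 1 rose, with a median of -0.62, or -0.40 without E7 and -0.67 with the length and GC offset. MHC class I genes gave 2 rises and 2 falls in 16, and their median went from 0.05 to -0.42 with the offset. Of 33 GPR-named G protein-coupled receptors 8 rose and 12 fell.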
